A study of Rattus norvegicus with 4 samples.

Results

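The p53 target genes described here are 10 genes that are textbook transcriptional targets of the tumour suppressor p53: Cdkn1a, Gadd45a, Mdm2, Ccng1, Bax, Fas, Phlda3, Bbc3, Sesn1 and Sesn2. They were taken from the deposited count table by exact gene symbol among protein-coding genes. Of the 10 symbols, 9 matched a row, and all 9 passed the filter on low counts, out of 14719 genes tested, 22293 protein-coding genes and 33506 genes in the table. Bbc3 matched no row by this rule and is described only through an unnamed locus. The values of these genes after cisplatin were not used to choose them, although earlier results of these data were known.

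Wild-type neonatal Wistar rats received vehicle (PBS) or cisplatin at 0.3 mg/kg by intraperitoneal injection on P14 and P16, and lumbar dorsal root ganglia (DRGs) were collected at P23. The labels of the samples instead place collection 16 days after treatment. Cisplatin is a platinum drug that crosslinks DNA. The groups were 2 vehicle-treated and 2 cisplatin-treated rats, with several whole ganglia pooled into 1 library for each rat, so that neurons, glia and other cells were measured together. The libraries held 21384801 to 25618417 counts. Differences were tested with edgeR's quasi-likelihood test over all genes, and calls required an adjusted p under 0.05 (Benjamini-Hochberg) together with a change of at least 1.5-fold.

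p53 is a transcription factor that is kept low in unstressed cells, mainly because MDM2 marks it for degradation. DNA damage activates kinases such as ATM, p53 is stabilised, and it raises the transcription of genes that halt the cell cycle, repair DNA, limit oxidative stress or start apoptosis. It also raises MDM2 itself, which closes a negative feedback loop. Sensory neurons of the DRG no longer divide, and platinum drugs reach them because the vessels of the ganglion are leaky.

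Some libraries stood apart in ways the treatment labels do not describe. The Y-linked genes Kdm5d, Eif2s3y and Uty had 0 counts in vehicle replicate 2, which allows up to 0.152 CPM (counts scaled to the library's total, with TMM) for each, and together 111 to 121 CPM in the other libraries. The sex of each rat is not given in the sources used here. Skeletal muscle markers summed to 355 CPM in vehicle replicate 1 and to 12.9 to 42.8 CPM in the others. The 6 neuronal markers summed to 23540 and 17700 CPM in vehicle-treated and to 28620 and 20390 CPM in cisplatin-treated libraries, and all 6 had a log2 fold change above 0 (median 0.26), 2 of them with groups that did not overlap. The 5 Schwann cell markers all had a log2 fold change below 0 (median -0.43) with overlapping groups, and were higher in replicate 2 of both groups, at 49750 and 127900 CPM in vehicle replicates 1 and 2 and at 38660 and 112100 CPM in cisplatin replicates 1 and 2. The summed level of the 7 macrophage markers was 53.3 to 60.9 CPM, with 2 markers (Cd68 and C1qa) above in both cisplatin-treated libraries and 3 (Aif1, Cd163 and Ptprc) below. Of all genes tested, 20.6% had both cisplatin-treated libraries above both vehicle-treated libraries and 21.2% had both below. Mitochondrially encoded genes took 1.53% and 2.58% of counts in vehicle-treated and 5.46% and 4.78% in cisplatin-treated libraries, so this share separated the groups, and the part of this share and of the neuronal and Schwann cell markers in the values below was not tested. In whole ganglia, a change in the number of cells of a type and a change in RNA per cell cannot be told apart. Of the endothelial markers, Cldn5 was at 0 in all libraries and Cdh5 was at 26.1 to 36.1 CPM. Replicates are separate rats.

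The stretches of DNA just before the start of these genes show where letters of the p53 consensus lie. RefSeq (build GRCr8) gave a window from 250 bases before to 50 bases after the start for 8 of the 10 genes, all but Bax and Bbc3. Each window was searched on both strands for the p53 consensus decamer, the 10-base unit that p53 reads in pairs, with no mismatch. The decamer was present in 4 of the 8 windows, those of Cdkn1a, Ccng1, Gadd45a and Sesn1. It was present in 7.98% of all 33469 windows of 27457 genes, and in 14.3% of 28 windows of 26 other listed p53 targets. A pair of decamers separated by at most 13 bases, with at most 2 mismatches in 20 bases, was found in the same 4 windows. Such a pair was found in 9.84% of all windows and in 10.7% of the 28 windows of other listed p53 targets. The letters CATG, which can form the centre of the decamer, were found in 4 of the 8 windows and in 62.6% of all windows. A match is a run of letters and does not show binding, and the window does not reach sites far from the RefSeq start used. Whether that start is the main start of a gene in the ganglia was not tested.
The 250 bases before the start are shown for Cdkn1a, where the decamer (in capitals) begins 201 bases before the start (chr20:7150682-7150931, + strand), and for Fas, the gene with the largest fold difference between the groups, whose window held no decamer (chr1:241211905-241212154, + strand).
Cdkn1a: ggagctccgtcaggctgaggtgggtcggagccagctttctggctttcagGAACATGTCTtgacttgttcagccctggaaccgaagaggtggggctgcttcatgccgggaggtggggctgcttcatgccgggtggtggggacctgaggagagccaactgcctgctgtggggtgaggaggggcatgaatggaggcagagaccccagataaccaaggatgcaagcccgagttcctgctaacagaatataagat
Fas: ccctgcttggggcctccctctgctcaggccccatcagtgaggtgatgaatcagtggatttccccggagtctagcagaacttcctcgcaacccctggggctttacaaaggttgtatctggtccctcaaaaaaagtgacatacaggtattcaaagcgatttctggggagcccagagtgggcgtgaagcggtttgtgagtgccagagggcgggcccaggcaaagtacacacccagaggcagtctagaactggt
The next lines give a pair of decamers, in capitals, of each gene that held an exact decamer, with any spacer in lower case. The Cdkn1a pair begins 201 bases before the start and has 1 mismatch, that of Ccng1 begins 242 bases before and has 1, that of Gadd45a 69 bases before with 1, and that of Sesn1 172 bases before with 2.
Cdkn1a pair: GAACATGTCTTGACTTGTTC
Ccng1 pair: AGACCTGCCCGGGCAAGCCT
Gadd45a pair: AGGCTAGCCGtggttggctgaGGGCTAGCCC
Sesn1 pair: AAGCTTGTTTttgctGGCCTGGTCC

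None of the 9 p53 target genes was called after cisplatin, and fold differences ran from 0.904 for Mdm2 to 1.70 for Fas. In 6 genes, Cdkn1a, Fas, Bax, Ccng1, Sesn1 and Sesn2, both cisplatin-treated libraries lay above both vehicle-treated libraries, whereas Mdm2, Phlda3 and Gadd45a overlapped. By log2 fold change 7 were higher and 2 lower, from -0.15 for Mdm2 to 0.77 for Fas, with a median of 0.16. Over all genes tested the median was -0.01, 49.1% were higher, 20.6% had both cisplatin-treated libraries above and 21.2% had both below. edgeR called 0% of all genes higher and 0.00679% (1 gene) lower, so edgeR made almost no calls among all genes. At an unadjusted p under 0.05 it passed 0 of the 9 genes, against 9.57% of all genes. DESeq2 also called 0 of the 9, and of all genes 0.34% higher and 0.611% lower. With 9 genes chosen when earlier results were known, these shares were set beside those of all genes without a test.
Without vehicle replicate 1, the library with muscle transcripts, 7 genes lay above and 2 below, against 35.8% and 38.9% of all genes. Without vehicle replicate 2, the library without Y-linked transcripts, 7 lay above and 0 below, against 33.4% and 33.3% of all genes. These settings were chosen after seeing the data.

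**Figure D1:**
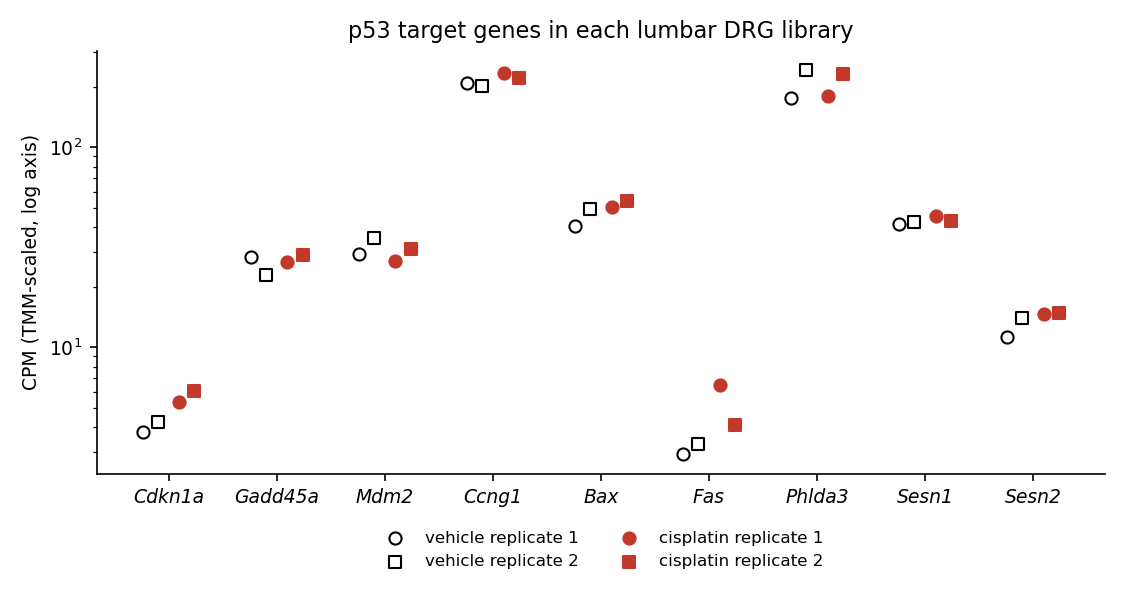
Level of each p53 target gene in each library, in TMM-scaled CPM on a log axis, with vehicle-treated libraries as open symbols, cisplatin-treated libraries as filled symbols, replicate 1 as circles and replicate 2 as squares. The filled symbols sit above the open symbols for Cdkn1a, Ccng1, Bax, Fas, Sesn1 and Sesn2 and are mixed with them for Gadd45a, Mdm2 and Phlda3.

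Per gene length, the level of these genes in the ganglia spanned a wide range. On the deposited FPKM scale (counts scaled to gene length and library size), Phlda3 was the most abundant at a mean of 143 over the 4 libraries, followed by Ccng1 at 65.7, Bax at 37.0, Gadd45a at 21.1, Sesn1 at 12.1 and Mdm2 at 10.2. Sesn2 at 3.59, Cdkn1a at 2.43 and Fas at 1.61 were the least abundant. From Phlda3 down to Mdm2, and between Mdm2 and Sesn2, the ranges of neighbouring genes did not overlap, although the lowest library of Sesn1 (11.7) and the highest of Mdm2 (11.6) nearly met. Across libraries, the range of Cdkn1a (1.89 to 3.05) overlapped that of Sesn2 (2.94 to 3.91) and that of Fas (1.12 to 2.49). The ranges of Sesn2 and Fas did not overlap. Within every single library, however, Sesn2 was above Cdkn1a and Cdkn1a was above Fas.

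The cell-cycle arrest genes were Cdkn1a and Gadd45a. Cdkn1a (ENSRNOG00000000521; chromosome 20, 6351458 to 6358864, Rnor_6.0, as for all gene coordinates here) encodes p21, an inhibitor of cyclin-dependent kinases that blocks entry into S phase. Vehicle replicates 1 and 2 held 94 and 83 of its counts, against 136 and 143 for cisplatin. Scaled to library size, these were 3.76 and 4.22 CPM in vehicle-treated libraries, against 5.35 and 6.08 CPM in cisplatin-treated libraries. Both cisplatin-treated libraries were above both vehicle-treated ones, by a gap wider than the difference within either group. The group means were 3.99 ± 0.326 and 5.72 ± 0.512 CPM (SD, n = 2 each), a 1.43-fold difference. The log2 fold change was 0.52 ± 0.28 (SE, 95% interval -0.19 to 1.23), and it did not pass the test (adjusted p = 0.577, edgeR). It stood at the 90.9th percentile of the log2 fold changes of all genes tested, and stayed between 0.37 and 0.62 over 16 alternatives.
Gadd45a (ENSRNOG00000005615; chromosome 4, 97782512 to 97784842), which encodes a stress sensor that binds PCNA, p21 and cell-cycle kinases, had 28.4 and 22.9 CPM in vehicle-treated libraries, against 26.7 and 28.9 CPM in cisplatin-treated libraries. The groups overlapped, since vehicle replicate 1 lay between both cisplatin-treated libraries. Its change was not called, with a log2 fold change of 0.11 ± 0.21 (SE, edgeR adjusted p = 0.874), and it changed sign without vehicle replicate 2 (-0.03) and with a correction for gene length (-0.05). Its paralogues were likewise not called: Gadd45b had 18.5 and 31.8 against 17.1 and 31.1 CPM (log2 fold change -0.06), and Gadd45g had 13.5 and 12.8 against 13.3 and 11.4 CPM (-0.09). Gadd45b was higher in replicate 2 of both groups.
Beside these, the markers of dividing cells Mki67, Top2a and Ccnb1 summed to 38.9 and 37.1 CPM in vehicle-treated libraries, against 37.4 and 41.3 CPM in cisplatin-treated libraries, with overlapping sums. Mki67 and Top2a also overlapped singly. Ccnb1 had 4.67 and 4.12 against 5.08 and 6.16 CPM, with both cisplatin-treated libraries above, as in 20.6% of all genes.

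The feedback genes were Mdm2 and Ccng1. Mdm2 (ENSRNOG00000006304; chromosome 7, 60719066 to 60743328), the ubiquitin ligase that marks p53 for degradation, had 29.2 and 35.1 CPM in vehicle-treated libraries, against 27.1 and 30.9 CPM in cisplatin-treated libraries. The groups overlapped, and replicate 2 was the higher library in both. The log2 fold change was -0.15 ± 0.20 (SE; 95% interval -0.65 to 0.36; edgeR adjusted p = 0.827), so an increase of 1.5-fold lay outside the interval while a decrease of that size did not.
Ccng1 (ENSRNOG00000003256; chromosome 10, 25903911 to 25910325) encodes cyclin G1, which recruits the phosphatase PP2A to MDM2. It was at 210 and 202 CPM in vehicle-treated libraries, against 237 and 223 CPM in cisplatin-treated libraries, from 3976 to 6011 counts a library. Both cisplatin-treated libraries were higher, with means of 206 ± 5.47 and 230 ± 9.64 CPM (SD, n = 2 each). The difference was 1.12-fold, with a log2 fold change of 0.16 ± 0.19 (SE, edgeR adjusted p = 0.793), and it did not pass the test. Its paralogue Ccng2 had 46.6 and 65.5 CPM against 41.5 and 60.0 CPM, with overlapping groups and a log2 fold change of -0.14 (adjusted p = 0.881, edgeR).

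The apoptosis genes were Bax, Fas, Phlda3 and Bbc3. Fas (ENSRNOG00000019142; chromosome 1, 252589785 to 252624790) encodes the death receptor that starts the extrinsic pathway, and it showed the largest difference of the 9 genes, from a low level. It had 73 and 65 counts in vehicle-treated libraries, against 165 and 96 counts in cisplatin-treated libraries, or 2.92 and 3.30 against 6.49 and 4.08 CPM. Both cisplatin-treated libraries were higher, but cisplatin replicate 1 was well above cisplatin replicate 2, by 0.67 on the log2 scale. The log2 fold change was 0.77 ± 0.35 (SE, 95% interval -0.11 to 1.65), a 1.70-fold difference at the 96.3rd percentile of all genes, and it did not pass the test (adjusted p = 0.532, edgeR). It fell to 0.40 without cisplatin replicate 1 and was 1.06 without cisplatin replicate 2, so the size of the difference rested on those libraries. Its ligand gene Faslg had 13 and 4 counts in vehicle-treated libraries, against 6 and 0 counts in cisplatin-treated libraries, and was too low to be tested.
Bax (ENSRNOG00000020876; chromosome 1, 101451802 to 101457207), the effector that opens the outer mitochondrial membrane, had 40.6 and 49.0 CPM in vehicle-treated libraries, against 50.1 and 54.0 CPM in cisplatin-treated libraries. Vehicle replicate 2 and cisplatin replicate 1 nearly met, so the separation of the groups was slight. For Bax the log2 fold change was 0.22 ± 0.19 (SE, edgeR adjusted p = 0.716). It was 0.10 without vehicle replicate 1, 0.36 without vehicle replicate 2 and 0.06 with the correction for gene length.
Bcl2 and Bcl2l1 encode proteins that restrain BAX. Bcl2 RNA was at 3.83 and 2.59 CPM in vehicle-treated libraries, against 1.69 and 1.49 CPM in cisplatin-treated libraries. Both cisplatin-treated libraries were lower, with a log2 fold change of -1.02 ± 0.38 (SE) that did not pass the test (edgeR adjusted p = 0.515). Bcl2l1, which encodes BCL-XL, had 94.6 and 107 CPM against 78.4 and 86.7 CPM, with a log2 fold change of -0.29 ± 0.18 (SE, edgeR adjusted p = 0.615).
Phlda3 (ENSRNOG00000009068; chromosome 13, 52588917 to 52592001), which encodes a repressor of AKT signalling, had 177 and 244 CPM in vehicle-treated libraries, against 180 and 234 CPM in cisplatin-treated libraries. The groups overlapped almost completely, and replicate 2 was the higher library in both, as it was for the Schwann cell markers (49750 and 127900 CPM against 38660 and 112100 CPM). Of the other target genes, Mdm2, Cdkn1a, Bax and Sesn2 were also higher in replicate 2 of both groups. For Sesn2 this was slight after cisplatin (14.7 and 14.9 CPM). Ccng1 was higher in replicate 1 of both groups, as was the sum of the neuronal markers (23540 and 17700 CPM against 28620 and 20390 CPM). For Gadd45a, Sesn1 and Fas the order of the replicates differed between the groups. Over all 14719 genes tested, the replicate difference in one group correlated with that in the other (Spearman's rho = 0.567). A shared order of replicates was therefore not particular to these genes. The part of Schwann cell and neuronal content in these values was not tested. The log2 fold change of Phlda3 was -0.02 ± 0.26 (SE, edgeR adjusted p = 0.980), with 0.23 without vehicle replicate 2 and -0.23 without cisplatin replicate 2.
For Bbc3, which encodes the BH3-only protein PUMA, an assembled locus without a gene symbol or biotype on chromosome 1 (78266447 to 78267802, + strand, Rnor_6.0) carried a description that matches it to the mouse gene. This locus had 6.55 and 7.82 CPM in vehicle-treated libraries, against 7.71 and 8.16 CPM in cisplatin-treated libraries. The groups overlapped, with a log2 fold change of 0.15 ± 0.26 (SE; 95% interval -0.51 to 0.80; edgeR adjusted p = 0.879 among 16182 genes of all biotypes). It was not counted among the 9 genes.

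The oxidative stress genes were Sesn1 and Sesn2, which encode sestrins that activate AMPK and restrain mTORC1. Sesn1 (ENSRNOG00000000302; chromosome 20, 46667121 to 46758305) had 41.3 and 42.2 CPM in vehicle-treated libraries, against 45.2 and 42.6 CPM in cisplatin-treated libraries. The groups did not overlap, yet vehicle replicate 2 and cisplatin replicate 2 were nearly equal. The log2 fold change was 0.07 ± 0.17 (SE; 95% interval -0.36 to 0.51; edgeR adjusted p = 0.903). Sesn1 was the only 1 of the 9 genes whose whole 95% interval lay within 1.5-fold in either direction.
Sesn2 (ENSRNOG00000042785; chromosome 5, 150684133 to 150704117) had 11.2 and 14.1 CPM in vehicle-treated libraries, against 14.7 and 14.9 CPM in cisplatin-treated libraries. The cisplatin-treated libraries were close to each other, and vehicle replicate 1 was the library that lay apart. The log2 fold change was 0.23 ± 0.23 (SE, edgeR adjusted p = 0.754), with 0.08 without vehicle replicate 1 and 0.40 without vehicle replicate 2.
Sesn3, the family member usually assigned to FOXO rather than p53 control, stood at 34.6 and 32.8 CPM in vehicle-treated libraries, against 17.1 and 18.0 CPM in cisplatin-treated libraries. Both cisplatin-treated libraries were lower by far more than the replicates differed. Its log2 fold change was -0.94 ± 0.19 (SE), and it had the smallest unadjusted p of the genes listed here, but it did not pass the test (adjusted p = 0.509, edgeR). The difference in change between Sesn3 and the other sestrins was not tested.

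**Figure D2:**
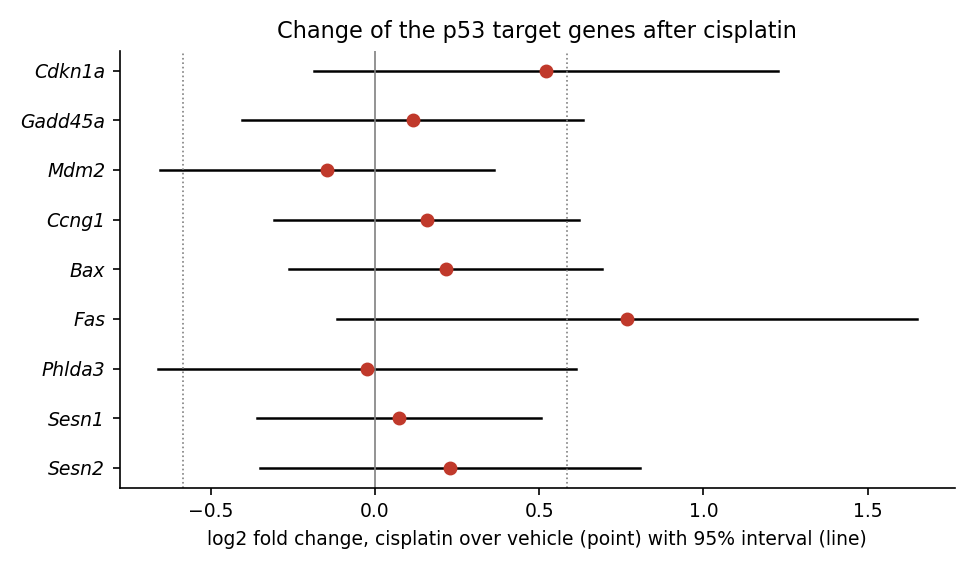
Log2 fold change of each p53 target gene in cisplatin-treated over vehicle-treated rats (points) with the 95% interval from edgeR's quasi-likelihood fit (lines); the solid vertical line marks no change and the dotted lines mark 1.5-fold. Every interval crosses no change, Fas (0.77) and Cdkn1a (0.52) lie farthest to the right, and only the interval of Sesn1 stays between the dotted lines.

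Most regulators of p53 had lower values after cisplatin, without passing the test. p53 activity is set largely at the protein level, which RNA counts do not measure.
Of the 13 listed regulators, 12 were tested, 2 were higher and 10 lower, 0 were called, and 4 (Hipk2, Mdm4, Ep300 and Usp7) were lower at an unadjusted p under 0.05. Of all genes tested, 50.9% were lower and 5.83% were lower at that p. The median log2 fold change of the regulators was -0.25, and in 6 of the 12 both cisplatin-treated libraries lay below both vehicle-treated libraries, against 21.2% of all genes. Mdm4, the partner of MDM2 that masks the activation domain of p53, had 12.8 and 14.6 against 5.47 and 8.54 CPM, a log2 fold change of -0.97 ± 0.30 (SE, edgeR adjusted p = 0.509). Hipk2, a kinase that phosphorylates p53, had 7.15 and 8.84 against 2.20 and 4.17 CPM (-1.33 ± 0.39, SE; edgeR adjusted p = 0.509). Atm, the kinase activated by DNA breaks, had 651 and 530 against 466 and 489 counts (-0.44 ± 0.20, SE; edgeR adjusted p = 0.532). In these 3 genes the groups did not overlap, but none passed the test.
The regulators had a median length of 3614.5 bases in the deposited annotation, against 2371 bases over all genes tested, and the change after cisplatin fell with gene length across all genes. The part of length in the regulators' values was not tested.

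Other p53 targets were divided between higher and lower values. Of 32 listed, 27 were tested, 15 were higher and 12 lower, 0 were called, and the median log2 fold change was 0.11. At an unadjusted p under 0.05 were 5 genes, 2 higher and 3 lower (Rrm2b and Apaf1 among the latter), against 3.74% and 5.83% of all genes. Both cisplatin-treated libraries lay above in 5 of the 27 and below in 6, near the 20.6% and 21.2% of all genes.
By role, 5 of 6 growth arrest genes were higher, with a median of 0.17, and 3 of 8 apoptosis genes were higher, with a median of -0.46. All 4 repair genes were lower (median -0.27), 3 of 4 genes of metabolism and autophagy were higher (median 0.28), and so were 4 of the 5 remaining targets (median 0.28). These groups are small, and 49.1% of all genes were higher.
Ephx1, Gpx1 and Abhd4 had the smallest unadjusted p in the higher direction over the wider lists. Ephx1, the microsomal epoxide hydrolase, had 22.3 and 26.6 against 36.6 and 38.4 CPM, a log2 fold change of 0.62 ± 0.20 (SE, edgeR adjusted p = 0.509). Gpx1, a glutathione peroxidase that removes hydrogen peroxide, had 59.0 and 73.2 against 103 and 96.6 CPM (0.59 ± 0.19, SE; edgeR adjusted p = 0.509). Abhd4, a lipase of N-acyl phospholipids, had 399 and 431 against 642 and 521 CPM (0.49 ± 0.24, SE; edgeR adjusted p = 0.553). For Ephx1 and Gpx1 the gap between the groups was wider than the difference within either group, for Abhd4 it was wider than the difference between the vehicle-treated libraries and narrower than that between the cisplatin-treated ones, and none passed the test.
Of the 13 relatives and binding partners, 10 were tested, 1 was higher and 9 lower, 0 were called and 2 (Sesn3 and Bcl2) were lower at an unadjusted p under 0.05. Over the 49 tested genes of these lists together, 11 were at an unadjusted p under 0.05, 2 of them higher and 9 lower, against 9.57% of all genes (3.74% higher and 5.83% lower), and the smallest adjusted p was 0.509 (edgeR).

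**Figure D3:**
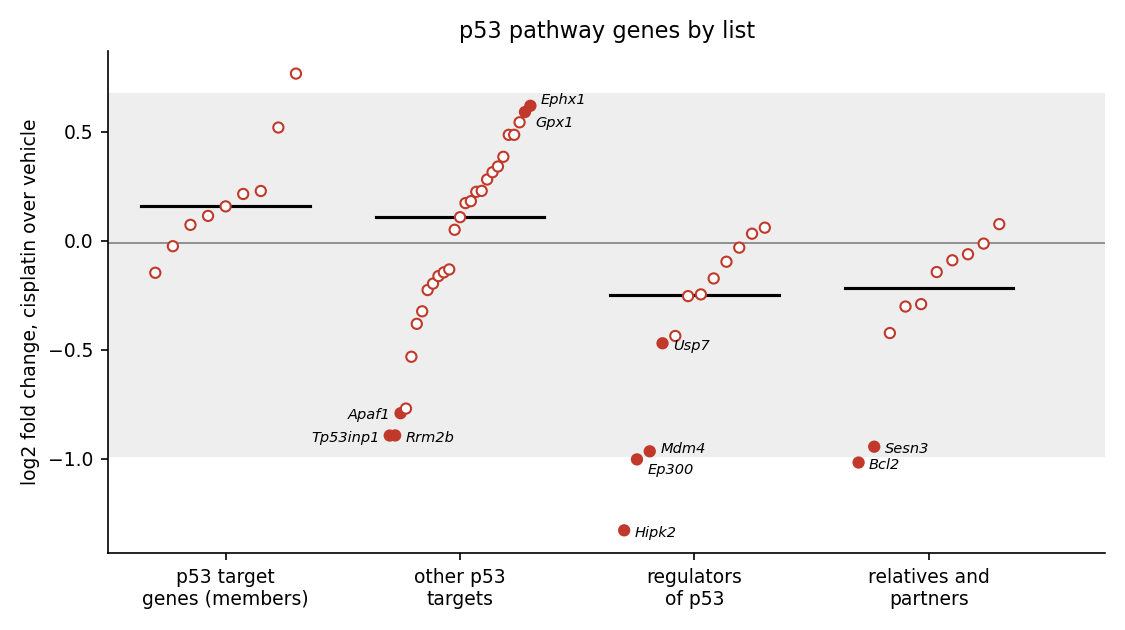
Log2 fold change in cisplatin-treated over vehicle-treated rats for each tested gene of 4 lists (points, sorted within a list), filled and named where the unadjusted p was under 0.05, with the median of each list (thick lines), the median of all genes tested (thin line) and their 5th to 95th percentiles (-0.99 to 0.67, shaded). No point of the p53 target genes is filled, their median is 0.16, and the medians of the regulators of p53 (-0.25) and of the relatives (-0.22) lie below the thin line.

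The values of the target genes can be read beside a trend with gene length. Over all 14719 genes tested, the log2 fold change fell with the gene length of the deposited table (Spearman's rho = -0.357 across genes, which share their 4 libraries and are not independent). The genes were divided by length into 4 groups of nearly equal size. The shortest (105 to 1531 bases), which holds Bax, Gadd45a and Phlda3, had a median of 0.20. The next (1532 to 2371 bases), with Cdkn1a, had 0.07. The third (2372 to 3623 bases), with Ccng1, Sesn1, Mdm2 and Fas, had -0.05, and the longest (3624 to 28192 bases), with Sesn2, had -0.21.
Bax at 0.22 was therefore close to the median of genes of its length, and Gadd45a (0.11) and Phlda3 (-0.02) were below theirs. Cdkn1a, Fas, Ccng1, Sesn1 and Sesn2 were above the medians of theirs, and Mdm2 was below. With a correction for gene length in each library, the log2 fold change was 0.79 for Fas, 0.47 for Cdkn1a, 0.35 for Sesn2, 0.24 for Ccng1, 0.17 for Sesn1, 0.06 for Bax, -0.05 for Gadd45a, -0.08 for Mdm2 and -0.15 for Phlda3. In that fit 0 of the 9 genes were called, and of all genes 0 were called higher and 1 lower (edgeR).

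**Figure D4:**
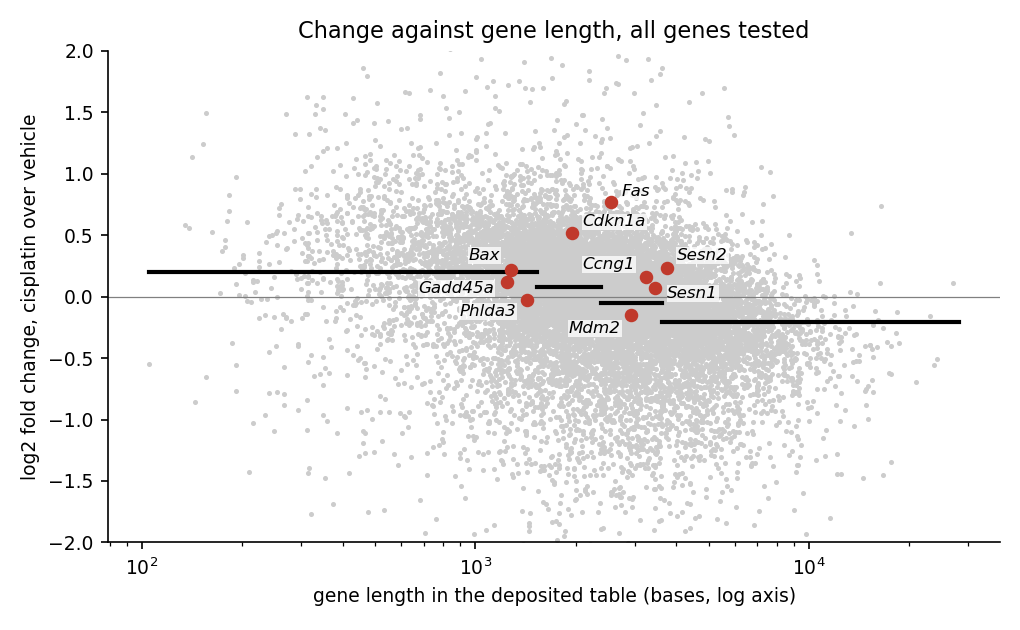
Log2 fold change in cisplatin-treated over vehicle-treated rats against gene length in bases (log axis) for all genes tested (grey points; 136 genes beyond 2 in either direction are outside the axis), with the p53 target genes in red and the median of each of 4 length groups as a black line. The medians step down from 0.20 to -0.21, and Fas and Cdkn1a lie above the line of their length group.

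The genes whose pattern over the 4 libraries was most like that of Cdkn1a were Psma4, Fabp5 and Anapc11, by the root-mean-square difference of centred log2 CPM (0.016, 0.017 and 0.021). Psma4, a proteasome subunit, had 2101 and 1888 counts in vehicle-treated libraries, against 3010 and 3139 counts in cisplatin-treated libraries. Fabp5, a fatty acid-binding protein, had 4843 and 4372 against 6934 and 7270 counts. Anapc11, a subunit of the anaphase-promoting complex, had 1211 and 1045 against 1689 and 1756 counts. Over only 4 libraries, likeness of this kind is a description.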

How the data were processed

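Poly(A)-selected, paired-end libraries were made from lumbar DRGs of 2 rats given vehicle and 2 given cisplatin. Reads were trimmed by the authors and aligned to Rnor_6.0 (Ensembl) using HISAT2 2.0.5. StringTie 1.3.3b was used for transcript assembly. Whole-number gene counts, without normalisation, were deposited. The submitters' processing notes also name featureCounts 1.5.0-p3 with no stated role. Whether counting used strand is not given in the sources used here, so reads of overlapping genes may not have been told apart. Near-identical copies are uncertain. The FPKM values deposited by the authors are those counts over gene length, scaled by a single factor per library. They were used only for levels between genes and as an alternative.

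Groups came from the sample labels, and all columns of both tables were used. The members of the list and the wider lists of p53 pathway genes were chosen with earlier results of these data known. Protein-coding genes kept by filterByExpr were fitted with edgeR 4.0.16 in R 4.3.3 (TMM, glmQLFit and glmQLFTest, two-sided, no covariate), with Benjamini-Hochberg adjustment over all genes tested. Standard errors were the absolute log2 fold change over the square root of F, and the 95% intervals from the same fit. An exact permutation test of 2 against 2 libraries cannot go below p = 0.333, and the spread used by edgeR is shared across genes. No library pair agreed within sampling noise (chi-square per degree of freedom of 47.6 or more). The closest pair was vehicle replicate 2 with cisplatin replicate 2 (47.6), a pair across the groups. The pair within vehicle had 123.7 and the pair within cisplatin 161.9. The floor of 3 counts corresponded to 0.118 to 0.152 CPM and covers counting error only, since the reads carry no molecular identifiers.

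All listed target genes were named. Of the wider lists, Mdm4, Atm, the closest relatives of the target genes and the 3 genes of smallest unadjusted p in each direction were named, and of all genes the 3 nearest to Cdkn1a in centred log2 CPM. Ep300, Usp7, Rrm2b and Apaf1 were named after their values were seen. Of the 10 symbols, 9 matched a row. Chek1, Tigar, Sco2 and Mcl1 matched no row by symbol and were not analysed here, Cop1 was matched as Rfwd2, and Eda2r, Faslg, Phlda2, Pidd1 and Triap1 were too low to be tested. Promoter windows are those of RefSeq (GRCr8), a different build from that of the counts. Results for 1 gene of the wider lists are not reported here. The scripts were tested on simulated data. Alternatives were other size factors, filters, biotypes, DESeq2 1.42.0, limma 3.58.1 on log2(FPKM + 1) and log2(FPKM + 0.1), a lowess gene length correction (span 0.3), the replicate number as a block, unadjusted p and leaving out each library, in which case the lone library of a group is assumed to vary like the other group. Fold changes from log2(FPKM + pseudocount) understate the change of low genes.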

Additional observations from a re-analysis of the deposited data

How the results depend on the processing

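The number of p53 target genes called was 0 in every alternative run, and their median log2 fold change ranged from 0.10 (without vehicle replicate 1) to 0.23 (without vehicle replicate 2). Gadd45a changed sign to -0.049 with the gene length correction, to -0.041 with that correction and the replicate block, and with 1 library left out it ranged from -0.029 to 0.29. Phlda3 ranged from -0.23 to 0.23 with 1 library left out, and was 0.17 without cisplatin replicate 1. The cause of these sign changes was not tested. The calls among all genes moved with the setting: higher genes numbered 1 without the filter, 1 when every library needed 10 counts, 1 with log2(FPKM + 0.1) and 0 to 4 with 1 library left out, and lower genes 0 to 4 with 1 library left out. There were 2 higher and 2 lower with log2(FPKM + 1), 50 and 90 with DESeq2, and 412 and 783 at an unadjusted p with the 1.5-fold threshold.

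The replicate numbers in the sample titles do not mark the same rats. Across genes, the difference between replicates 1 and 2 in one group correlated with that in the other (Pearson's r = 0.444, Spearman's rho = 0.567), which with 2 pairs is a hint from the data and not the design. With the replicate block, edgeR called 529 genes higher and 1136 lower, DESeq2 376 and 709, and edgeR with the length correction 277 and 805. Of the 49 tested genes of the wider p53 lists, 9 were called by edgeR with the block, 6 by DESeq2 with it and 6 once length was also corrected. The counts just given are out of 14719 genes, so many genes outside these lists were also called. The shares were not compared by a test. In each of these fits 0 of the p53 target genes were called. Sesn3, Mdm4 and Hipk2 were called lower in all 3 of these fits. Their adjusted p from edgeR and DESeq2 was 0.000985 to 0.00648 for Sesn3, 0.00906 to 0.0266 for Mdm4 and 0.00659 to 0.021 for Hipk2. Ephx1 and Gpx1 were called higher in the first and second. All other calls of the wider lists in these fits were lower, Apaf1 among them in the first and second. The lowest adjusted p-values of the target genes in edgeR were 0.105 for Fas and 0.191 for Cdkn1a with the block, and 0.163 for Ccng1 with the block and length correction. The block lowered the common dispersion from 0.0711 to 0.0209. Faslg, with 0 to 13 counts a library, was too low to be tested.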
